A study of Saccharomyces cerevisiae with 28 samples.

Results

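Cryptic unstable transcripts (CUTs) are short non-coding RNAs of budding yeast. The 2 count tables analysed here hold 40890 guide RNAs, and the guide lists used here give a target for 2278 of them. Of these, 295 were paired with a CUT, and they targeted 255 CUTs. Guides for CUTs outside the lists are not members here and can lie within the values given for all guides. A guide was taken as a member when its target entry in the study's guide lists for the early or the main activation screen began with CUT and a number. Of the CUTs, 219 had 1 such guide, 32 had 2 and 4 had 3. The guides of a CUT are numbered here only to tell them apart.

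The screens asked which guides change the secretion of a fungal α-amylase, AnAmy6, from Ethanol Red, an industrial diploid yeast that carried the enzyme gene at the HO locus in all groups. Plasmids brought in the same guides with nuclease-dead Cas9 fused to the activator VPR (activation library) or to the repressor Mxi1 (repression library), with the fusion proteins driven by the TEF1 promoter and the guides induced by anhydrotetracycline. Single cells in droplets with a fluorescent amylase substrate were sorted into the brightest droplets (high) and the rest (low), regrown on plates, and the guides on their plasmids were counted. No label says that the replicates were separate cultures, so p-values measure the spread between these libraries. A high and a low library of the same round and replicate number are called a sort here, though no label says that each replicate was sorted separately. The 28 libraries were 2 high and 2 low of the early activation screen (round 1), 8 and 8 of the main activation screens (rounds 2 to 5, 2 replicates each) and 4 and 4 of the main repression screens (rounds 1 and 2, 2 replicates each). Totals ran from 50433 to 3359719 reads per library.

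CUTs are made by RNA polymerase II, mostly from nucleosome-free regions that also serve as promoters of coding genes. The Nrd1, Nab3 and Sen1 complex ends their transcription early, the TRAMP complex adds a short poly(A) tail, and the nuclear exosome with Rrp6 then degrades them, so that they are barely seen in wild-type cells. A dCas9 fusion placed at a CUT start site can therefore sit beside the promoter of a neighbouring gene as well.

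The available lists order guides by the study's own test of the activation screens, which limits what can be tested. The early list held 256 of the 295 guides and the main activation list held 63, with 24 on both. For the 256 guides the early comparison is given as a description, and for the 63 the main activation comparison is. The repression values were used for neither list. The 232 guides on the early list alone and the 39 on the main list alone were not listed for the other activation screen, but their absence from its list also reflects their values there, so those values are not independent of the listing either.

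Some of the guides described below are shown here 5′ to 3′. The 10 bases next to the PAM, the part of a guide that tolerates mismatches least, are in capitals. The first 8 fell in the repression screens: the 6 largest falls, then the other guide of CUT035 and a guide of CUT765. They are followed by a pair with a larger share in the high fraction of all 4 repression sorts, by the 3 guides of the early list alone that fell in main activation, by the 3 most abundant CUT guides in any library, and by a guide that differed between activation and repression.
CUT577 guide 1: gtgatgaatcAGACATTGTC
CUT813 guide 1: agaagtattaTAAAGGATTA
CUT178 guide 3: gatctggctaCTGAAAAAGT
CUT403 guide 1: accttgatctTGTGCCGCCG
CUT250 guide 1: gttagtcggaACACTATGTG
CUT035 guide 1: aaggcttcaaGTAAAATTGC
CUT035 guide 2: ggtttgccccTCATGATCTT
CUT765 guide 2: ccacgttcacAACCGCGCCG
CUT743 guide 1: aagttattttACTCAGTGTT
CUT907 guide 2: ggcggccaccGAAGGCTCAG
CUT225 guide 2: tggaactttcACTGATTGTG
CUT533 guide 1: ggagaaactaCGCACCTACG
CUT380 guide 1: ccgttcggtaGGGAGTGGCG
CUT858 guide 2: gttaagattgAAGAGGAAAG
CUT765 guide 3: gctgcttgtgATGTTTTCCG
CUT915 guide 2: tcctttcgcgAAAATTCGCA
CUT491 guide 1: tatatcatatATCTGCATTC

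The GC content of the CUT guides was close to that of the other guides, whereas their first base was not. Their GC content was 41.0 ± 13.4% (SD, n = 295, range 5 to 75%), against a mean of 38.5% over all 40890 guides. A run of 4 thymines, which can end transcription by RNA polymerase III, was present in 40 CUT guides (13.6%) and in 11.3% of all guides. A G at the first base was found in 49.8% of the CUT guides, 56.3% of the 268 guides paired with a stable unannotated transcript (SUT) in the same lists, 53.5% of the other listed guides and 20.3% of all guides. The last 10 bases were shared with another guide of the library by 30 CUT guides (10.2%), against 10.01% of all guides.

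A position was listed for 15 of the CUT guides in the part of the design table used here. The positions were read against the RefSeq gene table of the S288C genome (R64, sacCer3), in which 66 of 67 positioned guides paired with a protein-coding gene lay within 1000 bases of that gene's start. Of these guides, 4 lay inside a coding gene and 11 lay between genes, and each of the 11 was within 400 bases upstream of a gene. The guide for CUT746 (chromosome 12, position 787610, plus strand) was 54 bases upstream of CHS5, a subunit of the exomer complex that carries cargo from the Golgi to the cell surface. The guide for CUT640 (chromosome 8, position 129374, minus strand) was 107 bases upstream of VPS29, a retromer subunit. The guide for CUT786 (chromosome 13, position 668421, plus strand) was 71 bases upstream of TOM40, the channel for protein import into mitochondria. Distances to ALE1, CBF5, SPE1, UBA1, ADE57, CET1, GFA1 and RDT1 from the guides for CUT387, CUT739, CUT704, CUT702, CUT585, CUT881, CUT229 and CUT461 ran from 32 to 383 bases. The guides for CUT456, CUT500, CUT505 and CUT634 lay inside CNS1, RAD55, VBA4 and TNA1. Since the end of the guide to which a position refers is not given, these distances hold to within the 20 bases of a guide.

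Most CUT guides were present in the low fractions and many were missing from the high ones. In the main repression screens 282 to 288 of the 295 guides had reads in each low library and 193 to 247 in each high library. In the main activation screens the numbers were 169 to 250 in the low and 145 to 183 in the high libraries, and in the early screen 224 and 268 against 147 and 149. Summed over libraries, the share of reads was lower in the high than in the low fraction for 181 of 292 CUT guides with a read under repression (62.0%, against 60.4% of SUT guides, 61.0% of other listed guides and 71.0% of all guides with a read) and for 193 of 290 in main activation (66.6%, against 70.7, 70.0 and 81.2%). The share in main activation followed the lists, with 79.7% of the guides on the early list alone, 33.3% of those on both and 10.3% of those on the main list alone lower in the high fraction. CUT guides together took 2.29 to 13.2% of a library. Reads are amplified without molecular identifiers, so the counting intervals below cover counting error only.

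The scaling of the libraries moved many values. Factors by the relative log expression (RLE) method, which the study used, were computed on the guides with reads in every library. In main activation they were 0.030 to 1.08 for the high and 3.12 to 10.6 for the low libraries, and the median log2 fold change over all 1166 guides tested was 4.68 with RLE and fell to -0.60 with library size alone. In main repression 7 libraries had factors of 1.39 to 1.82 and the high library of round 2 replicate 2 had 0.0349. Each count below is therefore given beside its value over all guides tested. High and low libraries of a sort were taken to come from the same droplets, which no label states. The calls below follow the study's fit without the sort as a block, and those lost with this replicate block are named beside the results.

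In the main repression screens 15 guides of 14 CUTs fell, meaning a log2 fold change below -3 at an adjusted p under 0.05 in edgeR's likelihood ratio test. These were 5.47% of the 274 CUT guides tested, and 13.5% of all 13403 guides tested fell. Among listed guides of the early list, the share was 5.37% of 242 for CUTs, 4.04% of 223 for SUTs and 3.90% of 1412 for other features. Each of the 15 was lower in the high fraction in all 4 sorts, with no overlap between fractions, and the call was kept with library size alone in each case. With 0 to 7 high reads, a guide had enough reads to be tested only through its low libraries. Agreement over sorts is therefore no separate support. Of the 15, 9 remained with the replicate block (3.28% of CUT guides tested, against 9.66% of all guides), and CUT097 guide 1, CUT190 guide 1, CUT418 guide 2, CUT491 guide 1, CUT616 guide 1 and CUT655 guide 1 lost the call. Without the high library of round 2 replicate 2, 21 CUT guides fell. Without overlap in this direction were 34 of 292 CUT guides with a read and 18.3% of all guides with a read. Only guides with reads in every low library can meet this: 278 CUT guides and 14881 of all guides, among which 34 and 4325 did. Of the 15, 7 had no read in any high library and the others had 1 to 7 reads in total, against 150 to 715 in the low libraries.

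CUT577 guide 1 had 30.4, 34.96, 64.3 and 91.4 counts per 1e6 reads of the library (CPM) in the 4 low libraries and 0 in all 4 high libraries. Its 537 low reads put it at least 196-fold lower in the high fraction, counting 3 reads over the pooled high libraries as the limit of a zero (adjusted p = 0.000695). CUT813 guide 1 had 29.2, 58.5, 54.3 and 61.6 CPM in the low libraries and no high reads, at least 181-fold lower. CUT178 guide 3 had 73.5, 38.2, 66.7 and 11.5 CPM in the low libraries, again with 0 in the high ones, at least 175-fold lower (adjusted p = 0.00072). In these 3 guides every low library was above every high library, and the low libraries also differed among themselves, most in CUT178 guide 3. CUT403 guide 1 stood at 92.3, 38.6, 27.4 and 29.3 CPM in the low libraries and was at least 193-fold lower. CUT250 guide 1 stood at 10.1, 13.0, 57.4 and 21.5 CPM and was at least 78.8-fold lower.

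CUT035 was the single CUT with several member guides of which more than 1 fell under repression. CUT035 guide 1 had 38.7, 12.6, 29.9 and 8.54 CPM in the low libraries and none in the high ones, at least 84.6-fold lower (adjusted p = 0.000695). CUT035 guide 2 had 1 read in the high libraries and 474 in the low libraries, a ratio of 519 with a 95% exact interval of 92.6 to 20530 (adjusted p = 0.00273). Both guides were nearly absent from main activation, where guide 1 had 1 low read and guide 2 had 24, and neither had a high read.

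CUT765 guide 2 also had no high read under repression, against 11.9, 9.76, 11.9 and 42.3 CPM in the low libraries (at least 71.9-fold lower). CUT234 guide 1 had 1 high and 506 low reads. CUT616 guide 1 had 2 and 634, CUT491 guide 1 had 1 and 330, CUT655 guide 1 had 3 and 234, and CUT418 guide 2 had 7 and 715. The smallest of the 15 changes were those of CUT097 guide 1 (log2 fold change -4.88, adjusted p = 0.0244) and CUT190 guide 1 (-5.41, adjusted p = 0.00361), with 4 and 2 high reads. In main activation 10 of the 15 guides had at most 4 reads over the 8 high libraries, as had 80 of all 295 CUT guides (27.1%). The share over all guides is not given here. Some of the 10 were scarce in the low libraries too, with 1 low read for CUT035 guide 1 and 16 for CUT403 guide 1. Others were not, with 885 for CUT250 guide 1 and 783 for CUT178 guide 3. None of the 15 was tested there, so these counts do not show a fall under activation.

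Under repression 29 CUT guides of 29 CUTs rose (log2 fold change above 3, adjusted p under 0.05), 10.6% of those tested against 5.37% of all guides. Most of their high reads came from a single library, since 28 of the 29 had their largest count in the high library of round 2 replicate 2, the one with the small RLE factor. Without that library no CUT guide rose, without a low library 0 or 1 rose, and without one of the other high libraries 63 to 67 rose. With library size alone none rose (3 at an unadjusted p under 0.05), nor with the replicate block (0 at an unadjusted p under 0.05), where no guide of the whole table rose. For comparison, 7.62% of SUT guides and 7.58% of other guides of the early list rose, against 9.09% of CUT guides of that list.

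CUT743 guide 1 and CUT907 guide 2 were the 2 of these 29 guides with a larger share of reads in the high library of all 4 sorts. The share of all guides that did so is not given here, so this does not set the pair apart. CUT743 guide 1 had 290, 482, 59.2 and 2130 CPM in the high libraries and 115, 135, 58.0 and 217 CPM in the low libraries of the same sorts. The groups overlapped, and its log2 fold change was 7.67 ± 2.45 (SE; adjusted p = 0.0135). CUT907 guide 2 had 516, 299, 552 and 1176 CPM in the high and 447, 250, 173 and 248 CPM in the low libraries (log2 fold change 5.73 ± 2.11, adjusted p = 0.0391). CUT751 guide 1 was at 471, 632, 426 and 1928 CPM in the high and 517, 470, 455 and 467 CPM in the low libraries, so its share was higher in 2 of 4 sorts (5.65 ± 2.13, adjusted p = 0.0447). With library size alone the 3 values were 2.45, 1.14 and 0.81, with adjusted p of 0.223, 0.861 and 0.995, and with the replicate block the adjusted p was 0.474, 0.574 and 0.738.

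In the main activation screens 88 of the 295 CUT guides had enough reads in enough libraries to be tested. Of these, 63 rose (71.6%) while 69.5% of all guides tested rose. The share of CUT guides was thus near that of any guide. With the replicate block 2 of the 63 remained, CUT158 guide 1 and CUT505 guide 1 (2.27% of CUT guides tested, against 1.11% of all guides). Of the 57 tested guides known from the early list alone, 35 rose (61.4%), against 66.2% of SUT guides and 66.0% of other guides of that list. The rises rested on few libraries: a median of 84.3% of a guide's high reads lay in 1 of the 8 high libraries, the library of round 4 replicate 1 was the highest for 20 of the 63 and that of round 5 replicate 2 for 18. No CUT guide had a larger share in the high library of all 8 sorts. For 23 of the 63 the pooled share of reads was lower in the high fraction than in the low one, and with library size alone 38 of the 63 kept the sign of their change.

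Among guides of the early list alone, CUT884 guide 1 and CUT734 guide 1 rose in all 4 rounds after RLE scaling. CUT884 guide 1 ranged from 1.68 to 7317 CPM in the high libraries (median 14.0) and from 4.78 to 1186 CPM in the low libraries (median 279). Its log2 fold change was 5.63 ± 1.74 (adjusted p = 0.00326), and 1.25 with library size alone (adjusted p = 0.606). CUT734 guide 1 ranged from 1.68 to 1564 CPM in the high (median 168) and from 40.6 to 1725 CPM in the low libraries (median 461), with 4.67 ± 1.66 (adjusted p = 0.00889), which turned to -0.69 with library size alone. With the replicate block the adjusted p was 0.525 and 0.502. In both guides the fractions overlapped and the median was lower in the high fraction.

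In main activation 6 CUT guides fell, 6.82% of those tested against 3.34% of all guides tested. All were lower by share in each of the 8 sorts, 5 of them without overlap, and all 6 were also called with library size alone, where 22 CUT guides fell. With 2 to 11 high reads, a guide had enough reads to be tested only through nearly all of its low libraries. Agreement over sorts is therefore no separate support. Of the 6, 4 remained with the replicate block (4.55%, against 1.63% of all guides). Without overlap in this direction were 13 of 290 CUT guides with a read and 1.21% of all guides with a read. Only guides with reads in every low library can meet this: 90 CUT guides and 1507 of all guides, among which 13 and 246 did. CUT225 guide 2 ranged from 0 to 4.08 CPM in the high libraries (median 0) and from 16.8 to 3294 CPM in the low libraries (median 213). It had 7 high and 2493 low reads, a pooled share 514-fold lower (95% exact interval 249 to 1280), with a log2 fold change of -5.30 ± 1.42 (adjusted p = 0.00101). CUT533 guide 1 had 9 high and 4119 low reads, with 0 to 9.71 CPM in the high (median 0.506) and 1.19 to 1029 CPM in the low libraries (median 193), which overlapped (-3.76 ± 1.15, adjusted p = 0.00304). CUT380 guide 1 had 0 to 4.86 CPM in the high (median 0.896) and 26.0 to 808 CPM in the low libraries (median 101), without overlap (-3.01 ± 1.09, adjusted p = 0.00984). With the replicate block the adjusted p was 0.0266 for CUT225 guide 2, 0.47 for CUT533 guide 1 and 0.144 for CUT380 guide 1.

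None of these 3 guides fell under repression. CUT225 guide 2 had 76 high and 787 low repression reads, CUT533 guide 1 had 1008 and 1820, and CUT380 guide 1 had 1424 and 506. The other 3 guides that fell in main activation were on the study's main list, so their values are a description: CUT848 guide 1 had 2 high and 2208 low reads, CUT267 guide 1 had 5 and 1657, and CUT792 guide 1 had 11 and 3075.

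The 3 CUT guides with the largest share of any library all peaked in the same one, the high library of main activation round 5 replicate 1. CUT858 guide 2 had 59477 CPM there, 5.95% of that library, while its other 7 high libraries held 0 to 142 CPM and its low libraries 0 to 164 CPM. CUT765 guide 3 reached 32649 CPM in it, with 1.14 to 1255 CPM in the other high libraries and 3.12 to 522 CPM in the low ones. CUT915 guide 2 reached 20267 CPM, with 0 to 404 CPM in the other high libraries and 3.12 to 603 CPM in the low ones. All 3 were on the main list. CUT858 guide 2 was called as higher with library size alone too (log2 fold change 6.82), as was CUT239 guide 1 (4.71), and no other CUT guide was. Under repression CUT858 guide 2 had 476, 163, 225 and 69.2 CPM in the high and 83.0, 114, 95.4 and 64.6 CPM in the low libraries (3.62 ± 1.44, adjusted p = 0.0587).

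The early screen had 2 libraries per fraction and a stricter limit on the change, a log2 fold change beyond 8 at an adjusted p under 0.1. For guides of the early list these counts are a description, since the list was made from this contrast. Of 260 CUT guides tested, 61 guides of 59 CUTs fell (23.5%, against 21.2% of all guides tested) and 2 rose (0.769%, against 1.21%). All 61 were on the early list, had no read in either high library and had 115 to 2452 reads in the low libraries, which places them at least 43.0 to 916-fold lower. No CUT guide passed as lower without either high library or without the low library of replicate 1, and 62 did without the low library of replicate 2. With the replicate block no guide of the whole table passed in either direction. CUT235 guide 1 was the most abundant, with 658 and 1498 CPM in the low libraries. CUT632 guide 2 had 402 and 1215 CPM, CUT119 guide 1 had 738 and 540 CPM, and CUT319 guide 1 had 310 and 684 CPM. In main activation CUT632 guide 2 had 5 high and 768 low reads, whereas CUT319 guide 1 had 2316 high and 673 low reads, 2311 of them in 1 library.

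CUT832 guide 2, from the early list, had 591 and 398 CPM in the early high libraries and 2.12 and 0 CPM in the low ones. CUT529 guide 1, from the main list alone, had 344 and 11.4 CPM in the high and 2.66 and 0 CPM in the low libraries (log2 fold change 11.9 ± 5.15). Its main activation reads were 373 (high) and 661 (low), and its repression reads 3523 and 1125, a rise (6.73 ± 2.35, adjusted p = 0.028, and 0.839 with the replicate block) with 2784 of the high reads in round 2 replicate 2. Among the 39 guides of the main list alone, 4 could be tested in the early screen and this was the 1 that was called. CUT529 guide 1 had enough reads to be tested there only through its high libraries, so its early call is a description.

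The same guides can be set side by side under activation and repression. Of the 63 guides that rose in main activation, 8 also rose under repression: CUT420 guide 1, CUT456 guide 1, CUT475 guide 1, CUT743 guide 1, CUT749 guide 1, CUT751 guide 1, CUT896 guide 1 and CUT907 guide 2. Over all guides tested, 69.5% rose in main activation and 5.37% under repression, and the share that rose in both is not given here. None of the 8 kept either rise with library size alone or with the replicate block. None of the 6 that fell in main activation and none of the 15 that fell under repression was called in the other main screen. The 15 were not tested in main activation, since none had enough reads in enough libraries. CUT418 guide 2, for example, had 2815 high reads there, 99.9% of them in 1 library. A fit over all 24 main libraries tested the difference between the activation and the repression effect. It called 22 of 281 CUT guides with a higher value in activation (7.83%, against 3.96% of all 14666 guides tested) and 0 with a lower one (0.00682% of all guides). At an unadjusted p under 0.05, 83 CUT guides were higher and 3 lower. The like count over all guides is not given here, but their calls were as one-sided, with 581 higher and 1 lower. Of the guides on the early list alone 9 of 222 were called, or 4.05%, which is near the share of all guides. With the replicate block 6 CUT guides were called, and the share over all guides with that block is not given here. With library size alone none was called (18 at an unadjusted p under 0.05). In all 22 more than 50% of the activation high reads came from 1 library.

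Of the 22 guides, 13 were on the main list, where activation values chose the guide, and 9 were on the early list alone. For the 13, the values are a description. Among the 9, CUT521 guide 1 had the smallest p. It had 142 activation high reads, all in round 3 replicate 2, against 26 low reads, and under repression 1 high read against 22, 57, 78 and 72 reads in the low libraries (difference 13.9 ± 3.49 on the log2 scale, adjusted p = 0.0103, and 0.33 with the replicate block). In the early activation screen this guide had 1 high and 741 low reads. CUT491 guide 1 had 861 high and 14 low reads in activation, 858 of the high reads in round 5 replicate 2, and 1 high against 330 low reads under repression (16.6 ± 4.18). CUT097 guide 1 had 3407 high reads, 3366 of them in round 4 replicate 1, and 6 low reads in activation, against 4 and 187 under repression (19.8 ± 4.52). CUT632 guide 1 had 1315 and 134 reads in activation against 0 and 62 under repression (15.4 ± 4.06). These 4 guides were low in the repression high libraries throughout, and high in a single library of main activation.

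The study's text and locus maps name several CUTs, and their guides differed widely. CUT643 guide 1 varied widely in the high libraries, with 5.04 to 11711 CPM in the high (median 494) and 294 to 1477 CPM in the low libraries of main activation (median 577). Under repression it had 735, 1286, 830 and 1157 CPM in the high and 876, 1138, 619 and 975 CPM in the low libraries, which overlapped (adjusted p = 0.121). CUT896 guide 1 had 3080 high and 594 low activation reads and 4829 and 1467 repression reads, 3132 of the latter high reads in round 2 replicate 2. CUT598 guide 1 had 1937 high reads in main activation, 1904 of them in round 4 replicate 2, against 10 low reads, and 2 against 80 under repression. CUT727 guide 1 had 200 high reads, 193 in that same library, and 3 low reads. CUT213 guide 1 had 215 high reads, 211 again in that library, and 2 low reads.

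CUT276 guide 1 had 36 high and 22 low reads in main activation, and 1119 of its early reads were in 1 high library. Under repression it had 10.5, 24.8, 0.543 and 2310 CPM in the high and 58.3, 85.4, 110 and 62.0 CPM in the low libraries, so that it was lower in 3 of 4 sorts and its rise (log2 fold change 8.48 ± 2.86, adjusted p = 0.0216, and 0.708 with the replicate block) rested on round 2 replicate 2. CUT361 guide 1 had no high read in the early screen, 5 high and 117 low reads in main activation, and 864 and 604 under repression. Of these repression high reads 838 lay in round 1 replicate 2, and the guide was lower in the high library of each other sort. CUT586 guide 1 had 1242 high reads in main activation, 1222 of them in round 4 replicate 1, and 369 low reads, whereas CUT586 guide 2 had 1 high and 61 low reads. CUT907 guide 1 had 19 high and 2897 low activation reads, a pooled share 220-fold lower (95% exact interval 141 to 366), while CUT907 guide 2 had 5408 and 2687. The high reads of CUT907 guide 2 lay in few libraries, with a median of 10.7 CPM in the high and 408 CPM in the low libraries.

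Guides of the same CUT can be compared only where more than 1 was tested. Of the 36 CUTs with 2 or 3 guides, this held for 4 in main activation. Each of the 4 had a guide that rose, and in CUT167 and CUT858 a second guide rose too. Of all guides tested there 69.5% rose, so these rises do not set the 4 CUTs apart. No guide of the 4 kept the rise with the replicate block. Under repression it held for 32, of which 5 had a guide that fell, with more than 1 in CUT035 alone, and 5 had a guide that rose, with no second in any. Of all guides tested under repression, 13.5% fell and 5.37% rose. CUT418 held both directions: guide 1 had 1087, 14, 1 and 1160 repression reads in the high and 130, 67, 28 and 8 in the low libraries, and guide 2 had 2, 4, 1 and 0 against 251, 140, 94 and 230. Neither call was kept with the replicate block, and the rise of guide 1 was also lost with library size alone. In CUT178, guide 3 fell under repression, while guide 2 had 1121 high and 1229 low reads and guide 1 had 164 and 547. In CUT765, guide 2 fell, guide 1 had 551 and 770 reads, with all high reads in 1 library, and guide 3 had 2396 and 1824. In CUT678, guide 2 had 2399 and 911 reads, guide 1 had 302 and 319, and guide 3 had 16 and 110. In CUT555 no guide was called under repression, where the 3 guides had 199 and 595, 119 and 952, and 974 and 2266 reads.

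A pair of guides listed for different CUTs was nearly identical. They differ at 2 of 20 positions counted from the 5′ end, A3G and T12A from CUT473 guide 1 to CUT480 guide 1, shown here in capitals.
CUT473 guide 1: gaAatgcgtatTcttatggt
CUT480 guide 1: gaGatgcgtatActtatggt
Their counts did not follow each other. In main activation CUT473 guide 1 had 553 high reads in round 4 replicate 2 and 0 to 6 in each other high library, and CUT480 guide 1 had 1065 of 1077 in round 3 replicate 2. Under repression CUT473 guide 1 had 107, 0, 28.2 and 11.2 CPM in the high and 44.3, 143, 103 and 188 CPM in the low libraries, and CUT480 guide 1 had 39.7, 128, 226 and 4.09 CPM against 204, 217, 172 and 172 CPM. Neither was called under repression. Guides for CUT534 and CUT555 overlapped by 11 bases on opposite strands, and those of CUT079 and CUT190 overlapped each other by 11 and 10 bases.

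Few guides of the RNA surveillance machinery were in the lists. Of 24 genes that terminate or degrade CUTs, 5 had a paired guide, with 6 guides in all. MTR3, an exosome core subunit, had no high read and 991 low reads in the early screen, 1390 and 855 in main activation (log2 fold change 4.87, adjusted p = 0.00648) and 3 and 163 under repression (-5.38, adjusted p = 0.00533). Its adjusted p with the replicate block was 0.97 and 0.171. The 2 guides of SKI6, another core subunit, had 0 high and 435 low and 1240 high and 196 low early reads, and in main activation 2 high and 1474 low and 22 high and 1728 low reads. XRN1, the cytoplasmic 5′ to 3′ exonuclease, had 865 and 322 early reads, 6 and 1433 in main activation and 277 and 514 under repression. AIR2, a TRAMP subunit, had 1384 high and 5 low reads in main activation, and RRP43, an exosome subunit, had 406 and 538.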

How the data were processed

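The authors deposited whole-number read counts per guide for each of 28 libraries, in 2 tables. Per their methods, Je separated the libraries, BWA placed each read on a reference of guides with added flanks, and an R script tallied the hits (versions not given in the sources used here). Targets and sequences of guides came from the study's guide lists, whose columns of test results were not used. No other value column was left aside (0 columns).

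High and low libraries were compared in edgeR 4.0.16 (R 4.3.3) with RLE factors, filterByExpr, glmFit and glmLRT, p-values adjusted by Benjamini-Hochberg over all guides tested and a prior count of 0.125. A call needed an absolute log2 fold change over 3 and an adjusted p under 0.05, or over 8 and under 0.1 in the early screen. DESeq2 1.42.0, TMM factors, the quasi-likelihood test, no filter, a prior count of 2, a replicate block and left-out libraries were tried. High and low libraries of 1 sort share a round and replicate number and were taken to come from the same droplets. The correlation of their deviations from the group means was 0.004 to 0.017 under repression, 0.047 to 0.132 in main activation and 0.031 in the early screen. It was highest with the low library of the same sort in 3 of 4, 5 of 8 and 2 of 2 pairs. The fits were tested on simulated data with less spread between libraries than these, whose common dispersion was 2.43 in main repression and 3.37 in main activation. That test therefore does not show how well the calls hold here. Totals of 50433 to 3359719 reads set the precision, with exact 95% intervals.

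The members, lists and naming rule were chosen with earlier results of these data known. Named guides were those of CUTs the study names, the leading calls of each screen that moved alike in all sorts or rounds, the 3 most abundant, CUTs with 3 guides, near-identical pairs and the 4 smallest p for the difference. CUT035 guide 2, CUT418, CUT239, CUT158, CUT505 and the smaller repression falls were named after their values were seen. Some items are not reported here.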

Additional observations from a re-analysis of the deposited data

Results flagged for a closer look

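Of 28 groups of 4 to 8 libraries examined on the log2(CPM + 1) scale for the named guides, 3 held a library that stood far from the others. These guides were named partly for their values, so no rate expected by chance applies. CUT858 guide 2 had 59477 CPM in the main activation high library of round 5 replicate 1. CUT533 guide 1 had 9.71 CPM in the high library of round 2 replicate 2, which was 2 reads. CUT884 guide 1 had 4.78 CPM, or 4 reads, in the low library of round 4 replicate 2, the lowest of its low libraries.

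The difference between the activation and the repression effect is given for the 4 guides with the smallest p, at 19.75 for CUT097 guide 1, 16.63 for CUT491 guide 1, 15.44 for CUT632 guide 1 and 13.92 for CUT521 guide 1 on the log2 scale. It also passed the test for the named guides CUT858 guide 2 (13.23), CUT678 guide 3 (12.14) and CUT765 guide 3 (10.47). With library size alone none of the CUT guides passed it.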

How the results depend on the processing

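The counts of called CUT guides moved with the scaling and the test, and the cause was not tested. The setting with library size alone was chosen after seeing the data. Under repression the 15 falls became 18 with DESeq2, 17 with TMM factors, 17 with library size alone, 18 with no filter, 15 with the quasi-likelihood test and 14 to 35 without single libraries. The 29 rises became 6 with DESeq2 (none of them the same guides), 4 with TMM factors, 0 with library size alone, 0 with the quasi-likelihood test (25 at an unadjusted p under 0.05), 32 with no filter and 0 to 67 without single libraries. In main activation the 63 rises became 31 with DESeq2, 39 with TMM factors, 2 with library size alone, 61 with no filter, 58 with the quasi-likelihood test and 43 to 61 without single rounds. The 6 falls became 11 with TMM factors, 22 with library size alone, 2 with no filter and 5 to 10 without single rounds. In the early screen the 61 falls became 16 with DESeq2, 87 with TMM factors, 97 with library size alone, 0 with no filter (21 at an unadjusted p under 0.05), 3 with a prior count of 2, 3 with the quasi-likelihood test and 0 to 62 without single libraries. The 2 rises became 18 with DESeq2, 1 with TMM factors, 0 with library size alone, 0 with no filter, 0 with the quasi-likelihood test and 0 to 21 without single libraries. For the difference the 22 guides became 5 with TMM factors, 0 with library size alone, 22 with no filter and 4 with the quasi-likelihood test.

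With the sort as a replicate block the counts were 9 falls and 0 rises under repression, 4 falls and 2 rises in main activation, 0 of each in the early screen (62 and 7 at an unadjusted p under 0.05) and 6 for the difference.

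Of the values of single guides, all 90 for the 6 largest falls under repression kept their call, while for the 3 rises there that were followed singly 16 kept it and 26 lost it. With library size alone 38 of the 63 rises in main activation kept their sign. Among the guides followed singly, the direction turned over for CUT734 guide 1 in main activation, at -0.69 with library size alone.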
